A study of Paxillus involutus ATCC 200175 with 12 samples.

Results

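The data described here are the 6 arrays that show what added glucose did to the transcriptome of an ectomycorrhizal fungus when ammonium was already present. They are the 3 arrays titled OM+N+G and the 3 arrays titled OM+N, chosen by their titles from the 12 arrays of the study. The OM+N+G cultures received an extract of organic matter with ammonium and glucose, and the OM+N cultures received the same extract with ammonium alone. The remaining arrays are 3 with the extract and glucose (OM+G) and 3 with the extract alone (OM). They serve to show where the glucose change with ammonium differed from that without it, and they also entered the fit behind the tests. All 12 cultures were of 1 strain, Paxillus involutus ATCC 200175, grown axenically and thus without a host tree. Mycelium was grown on glass beads in a minimal medium for 9 days and starved of nitrogen for 24 h. It then spent 7 days in a maize compost extract made with hot water, cleared of particles by 0.2 um filtration and of compounds under 10 kDa by ultrafiltration. How much glucose and ammonium was added is not given in the labels.

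Ectomycorrhizal fungi live on the roots of trees, receive sugars from the host and deliver nitrogen in return. Much of the nitrogen in forest soil is bound in organic matter, and fungi such as Paxillus involutus can modify that matter oxidatively to reach it. In fungi, glucose is a preferred carbon source and ammonium a preferred nitrogen source, and both are known to act as signals that repress genes for the use of other sources. The study asked how the supply of glucose and ammonium governs the mobilisation of nitrogen from litter, and the comparison of OM+N+G with OM+N addresses the effect of glucose on mycelium that had also been given ammonium.

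Each array gave 1 RMA value on the log2 scale for each of 12214 features, each known only by a number (such as paxillus_10). No file links these numbers to genes, and none of the feature IDs (0 of 12214) matched the reference gene table of this strain's genome, so no gene function can be given. Only the features that a comparison turns on are named. Array medians lay between 11.74 and 11.76 in OM+N+G and between 11.76 and 11.78 in OM+N. The random-sequence control of the array lay between 3.66 and 3.71 in OM+N+G and between 3.72 and 3.76 in OM+N. OM+N+G filled subarrays 10 to 12 of the slide and OM+N subarrays 4 to 6, so glucose and position on the slide cannot be told apart in any result below. In bulk mycelium, fewer cells of a kind and less RNA per cell cannot be told apart either.

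1 of the 6 arrays stood apart from its group in its correlations. OM+N replicate 1 correlated with the other OM+N arrays with r of 0.9936 and 0.9947 across features, against 0.9974 between those 2, and the OM+N+G arrays correlated among themselves with r between 0.9961 and 0.9974. Its r with the OM+N+G arrays, between 0.9544 and 0.9549, was also lower than that of the other OM+N arrays, between 0.9674 and 0.9722. On a scale where 0 is the mean of OM and 1 the mean of OM+G, the OM+N+G replicates 1 to 3 scored 1.01, 0.99 and 0.99, and the OM+N replicates 1 to 3 scored -0.36, -0.08 and -0.14. OM+N replicate 1 therefore lay beyond its group mates on the side away from the glucose arrays, and the main counts below are given with and without it. Other measures set it apart less. Its median absolute deviation from its group mates was 0.103 (log2), against 0.095 for OM+N+G replicate 3 and 0.089 for OM+N replicate 2. Array weights, which are lower for noisier arrays, were 0.43 for OM+N replicate 1 and 0.5 for OM+N+G replicate 3. Over all features the median SD between replicates was 0.077 in OM+N+G (n = 3) and 0.084 in OM+N (n = 3), and it was 0.057 between the remaining OM+N arrays (n = 2). The median SD of 2 arrays is lower than that of 3 at equal spread, so the last value cannot be set directly against the others.

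Glucose changed most of the measured transcriptome in the presence of ammonium, mostly by small amounts. With all arrays 8963 of 12214 features (73.4%) passed limma's test at a Benjamini-Hochberg adjusted p under 0.05, 3990 of them (32.7% of all) higher in OM+N+G and 4973 (40.7%) lower. Without OM+N replicate 1, 8449 features (69.2%) passed, 3842 (31.5%) upward and 4607 (37.7%) downward. The lists shared 8347 features with the same direction, which is 93.1% of the list with all arrays and 98.8% of the list without that array. No feature was called in opposite directions (0 of 12214). The 616 features that were called only with all arrays had a median absolute change of 0.20 (log2), and the 102 called only without that array had one of 0.24. The OM+N+G and OM+N arrays did not overlap for 9275 features (75.9%) with all arrays, and for 9661 (79.1%) without OM+N replicate 1. Leaving out an array cannot create overlap, so this count could not fall.

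The sizes of the changes were uneven between rises and falls. Of the features called with all arrays, 544 rose and 680 fell by less than 0.25 on the log2 scale, 1384 rose and 1979 fell by 0.25 to 0.5, and 1582 rose and 2171 fell by 0.5 to 1. Leaving out OM+N replicate 1 gave 406 and 525, 1522 and 2010, and 1592 and 1984. Changes of at least 1, a factor of 2 or more, were seen in 480 rises (3.93% of all features) and 143 falls (1.17%). This ratio depended on the scaling, with 388 rises and 231 falls after scaling to the 75th percentile, 458 and 186 after quantile normalization and 455 and 173 after cyclic loess. Changes of at least 2 were seen in 9 rises (6 without OM+N replicate 1) and in none of the falls (0 in either fit), and the largest fall was -1.32 against a largest rise of 3.13. A distance of at least 1 between the nearest arrays of OM+N+G and OM+N separated the groups for 133 features that were higher and 19 that were lower in OM+N+G. With OM+N replicate 1 left out these were 134 and 21, counts that could not fall, since leaving out an array can only keep or widen that distance.

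The large changes depended on OM+N replicate 1 more than the calls did. Without it 322 features rose (2.64%) and 88 fell (0.72%) by at least 1, and the falls numbered 91 without OM+N+G replicate 3. Of the 480 rises, 165 no longer reached 1 without OM+N replicate 1, although 479 of the 480 stayed called, and all 143 falls stayed called while 55 of them no longer reached 1. Among the 8963 called features, the change was smaller without OM+N replicate 1 in 7033 (78.5%), and the median of the shift was 0.04 (log2). This array was the OM+N array farthest from the OM+N+G mean in 5874 of the called features (65.5%), and in 495 of the 623 with a change of at least 1 (79.5%).

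**Figure D1:**
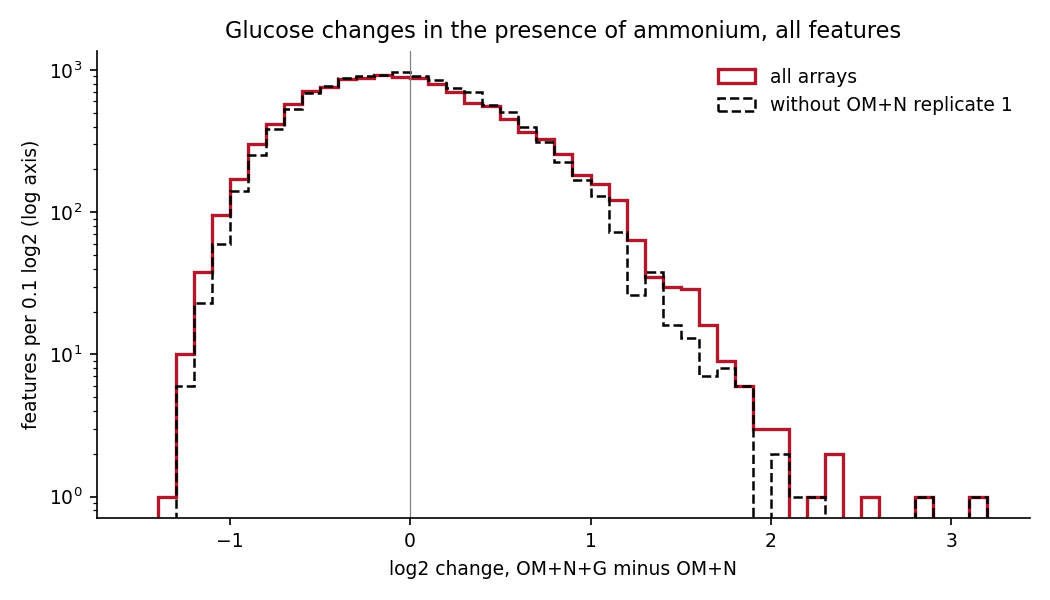
Number of features (log axis) by log2 change, OM+N+G minus OM+N, in steps of 0.1, with all arrays (solid) and without OM+N replicate 1 (dashed). The rises reach 3.13 and the falls -1.32, and changes of at least 1 that passed the test are fewer on the dashed line (322 rises and 88 falls) than on the solid one (480 rises and 143 falls).

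Features were picked among those called with and without OM+N replicate 1 whose OM+N+G and OM+N arrays did not overlap. The largest rises by this rule were those of paxillus_10 and paxillus_316. The level of paxillus_10 was 13.94, 13.81 and 13.93 (log2) in OM+N+G replicates 1 to 3, against 10.74, 10.51 and 11.02 in OM+N replicates 1 to 3. All 3 OM+N+G arrays lay far above all 3 OM+N arrays, and OM+N replicate 1 lay between its group mates. The change was 3.13 (log2, SE 0.41, limma adjusted p = 1.92e-05), an 8.76-fold difference, and 3.12 (SE 0.47, limma adjusted p = 9.68e-05) without OM+N replicate 1. The level of paxillus_316 was 12.64, 12.45 and 12.31 (log2) in OM+N+G, against 9.64, 9.42 and 9.87 in OM+N. The change of 2.82 (SE 0.33, limma adjusted p = 7.99e-06) was the same to 2 decimals without OM+N replicate 1 (SE 0.38, limma adjusted p = 4.3e-05).

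Both features were also high with glucose alone, at 13.77, 13.86 and 13.73 for paxillus_10 and 12.56, 12.66 and 12.75 for paxillus_316 in OM+G. In OM they were low in replicates 1 and 3 and high in replicate 2, where paxillus_10 reached 12.90 and paxillus_316 reached 11.40, between the levels of the groups with and without glucose. Their glucose change without ammonium was 2.32 and 2.37 (log2), and 3.03 and 2.92 without OM replicate 2 and OM+N replicate 1. The difference from the change with ammonium did not pass the test for either (0.81, SE 0.58, limma adjusted p = 0.554 for paxillus_10, and 0.45, SE 0.47, limma adjusted p = 0.672 for paxillus_316).

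The largest falls by the same rule were those of paxillus_12663 and paxillus_12498. The level of paxillus_12663 was 10.34, 10.30 and 9.90 (log2) in OM+N+G, against 11.61, 11.52 and 11.39 in OM+N. OM+N+G replicate 3 was the lowest array. The change was -1.32 (SE 0.10, limma adjusted p = 6.66e-07), a 2.51-fold lower level in OM+N+G, and -1.27 (SE 0.11, limma adjusted p = 4.16e-06) without OM+N replicate 1. The level of paxillus_12498 was 12.51, 12.42 and 12.34 in OM+N+G, against 13.77, 13.60 and 13.73 in OM+N. The change was -1.28 (SE 0.09, limma adjusted p = 5.09e-07), or -1.25 (SE 0.10, limma adjusted p = 3.15e-06) without OM+N replicate 1. In the groups without ammonium they changed by -0.97 and -0.94 (log2), and the difference between the ammonium levels did not pass the test (limma adjusted p = 0.345 and 0.313).

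**Figure D2:**
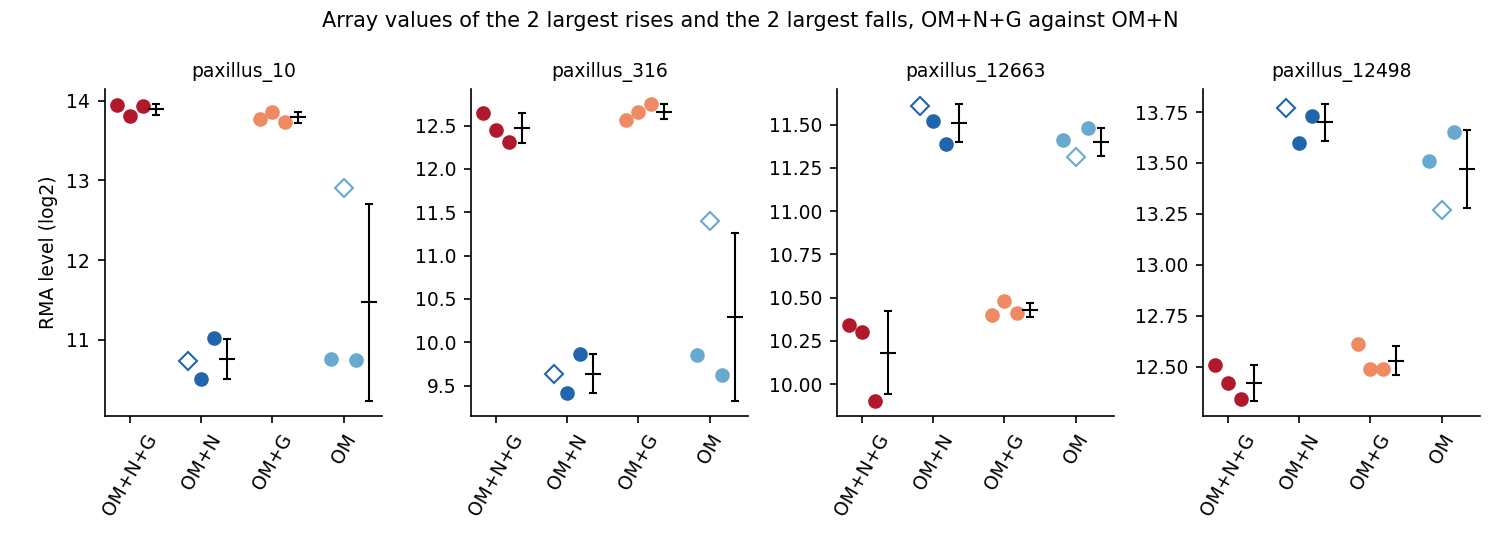
RMA level (log2) in each array of the 4 groups for the 2 largest rises and the 2 largest falls between OM+N+G and OM+N, with the group mean and SD (n = 3) as a bar to the right of the points. Open diamonds mark OM+N replicate 1 and OM replicate 2. The features were chosen among those whose OM+N+G and OM+N arrays do not overlap.

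In a few features OM+N replicate 1 moved the size of the change far more, although the calls described next held without it. The rise that moved most when the array was left out belonged to a bright feature with levels of 14.97, 14.85 and 14.81 (log2) in OM+N+G, against 11.16, 14.01 and 14.46 in OM+N. OM+N replicate 1 was far below the other OM+N arrays, and the change of 1.67 (SE 0.59, limma adjusted p = 0.0211) became 0.65 (SE 0.16, limma adjusted p = 0.00279) without it. The fall that moved most belonged to a feature near the control level, at 3.40, 3.46 and 3.35 in OM+N+G against 3.38, 4.41 and 4.17 in OM+N. Here OM+N replicate 1 lay among the OM+N+G arrays, and the change of -0.58 (SE 0.20, limma adjusted p = 0.0182) became -0.89 (SE 0.12, limma adjusted p = 5.24e-05) without it. Shifts of this size were rare: leaving the array out moved the change by at least 0.5 in 13 called features and by at least 0.25 in 124. The call of that rise was lost in other settings: the 6 arrays alone, an intensity trend with robust moderation, and OM+N+G replicate 1 left out. That of the fall was lost when OM+N replicate 2, OM+N replicate 3 or OM+N+G replicate 3 was left out.

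A group of features lay near the level of the random-sequence control, and few of them were called. The mean of at least one of OM+N+G and OM+N was under 6 (log2) for 717 features, 650 of which carried numbers above 12000. Of the 717, 76 (10.6%) were called, against 73.4% of all features. Of these calls 43 were upward and 33 downward, and 73 features were called without OM+N replicate 1 (44 upward and 29 downward). Hardly any crossed the level of 6: the mean was under 6 only in OM+N for 4 features and only in OM+N+G for 1. The largest rise among them had levels of 4.42, 6.39 and 5.75 in OM+N+G, against 3.50, 3.35 and 3.54 in OM+N. The groups did not overlap, the OM+N+G arrays were widely spread, and the change was 2.06 (SE 0.41, limma adjusted p = 5e-04), or 2.07 (SE 0.47, limma adjusted p = 0.00164) without OM+N replicate 1. The largest fall had levels of 3.43, 3.66 and 3.71 in OM+N+G, against 4.24, 4.21 and 4.41 in OM+N, a change of -0.69 (SE 0.11, limma adjusted p = 6.8e-05), and -0.71 (SE 0.12, limma adjusted p = 0.000227) without OM+N replicate 1. No detection call comes with the values, so expression of these features is not established.

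Among the 11499 features with a mean over all 12 arrays of at least 6, the direction of the change went with brightness in the deposited values. In the brightest 25%, with a mean over all arrays of 12.34 to 14.90, 1479 of 2875 features (51.4%) rose and 854 (29.7%) fell. In the dimmest 25%, with a mean of 6.02 to 11.31, 562 of 2875 (19.5%) rose and 1615 (56.2%) fell. Rises of at least 1 made up 7.69% of the brightest and 1.63% of the dimmest, and falls of at least 1 made up 1.88% and 1.43%. Without OM+N replicate 1, 48.9% of the brightest rose and 27.9% fell, and of the dimmest 19.3% rose and 51.8% fell. Cyclic loess takes such an intensity trend out by the way it works, and after it 40.4% of the brightest rose and 36.9% fell, while of the dimmest 35.0% rose and 36.5% fell. On that scale the large changes of the brightest were more often falls, with 143 falls and 108 rises of at least 1, so the direction for bright features cannot be stated without the scaling. The interquartile range of an array was 1.26 to 1.27 in OM+N+G and 1.06 to 1.09 in OM+N (log2).

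The direction of the change also differed between ranges of the running number of the feature, without a steady course. Among numbers 1 to 1000, 456 of 846 features (53.9%) rose and 206 (24.3%) fell, and the median change was 0.24 (log2). Among numbers 7001 to 8000, 540 of 1000 (54.0%) rose and 221 (22.1%) fell, with a median of 0.21. Among numbers 11001 to 12000, 103 of 1000 (10.3%) rose and 737 (73.7%) fell, with a median of -0.42, and among numbers 12001 to 13000, 96 of 986 (9.74%) rose and 635 (64.4%) fell, with a median of -0.39. These shares stand against 32.7% that rose and 40.7% that fell over all features. They are those of the more extreme ranges: 22.8% rose and 49.1% fell among numbers 2001 to 3000, and 37.9% and 38.1% among 4001 to 5000. With OM+N replicate 1 left out, 51.5% rose and 23.0% fell among numbers 1 to 1000, 51.9% and 19.4% among 7001 to 8000, 10.2% and 69.9% among 11001 to 12000, and 9.63% and 62.4% among 12001 to 13000. The median changes of the same 4 ranges were 0.23, 0.21, -0.39 and -0.37 without OM+N replicate 1, and 0.22, 0.24, -0.30 and -0.27 after cyclic loess.

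**Figure D3:**
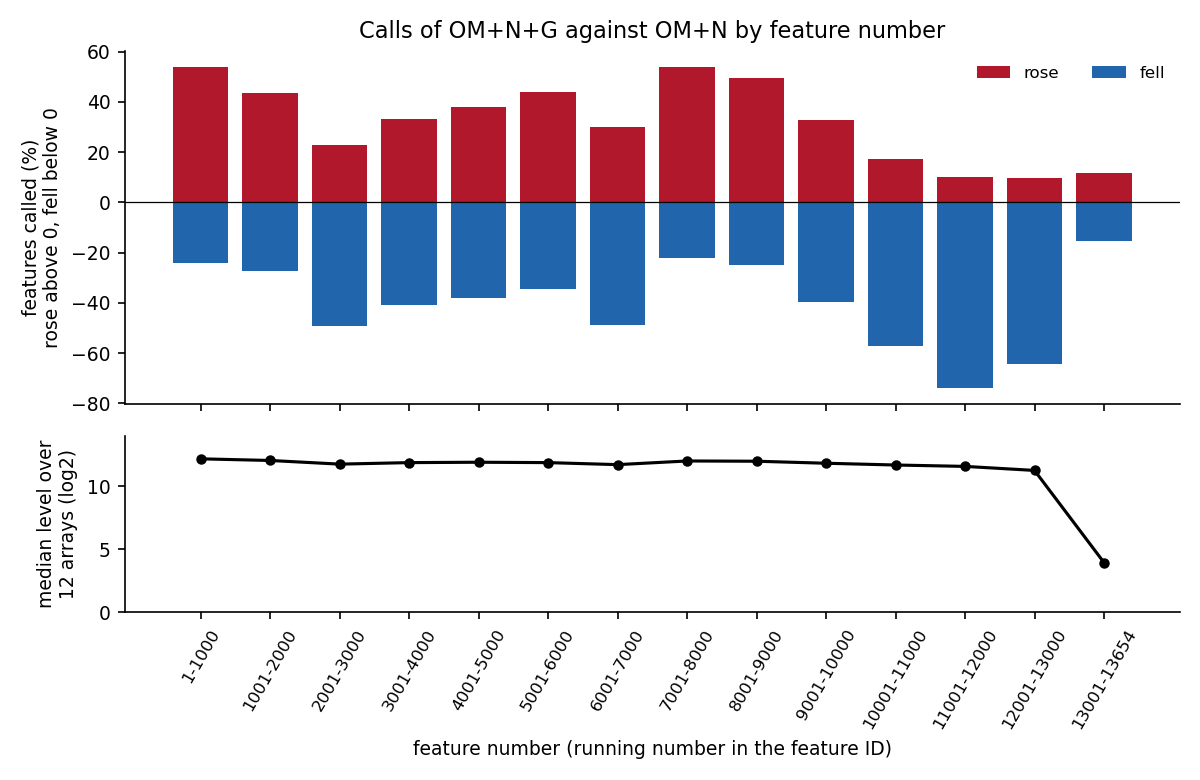
Upper panel: share of features (%) called higher (above 0) or lower (below 0) in OM+N+G than in OM+N, by range of the running feature number. Lower panel: median level over the 12 arrays (log2) in each range; falls outnumber rises in every range above 9000, and the level drops to 3.93 in the last range.

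Brightness differed between these ranges, with a median level of 12.16 (log2) for numbers 1 to 1000 and of 11.56 for numbers 11001 to 12000. The pattern was also present among features of like brightness, in blocks of numbers that were chosen with earlier results of these data known. In the brightest 25%, 418 of 666 features numbered 1 to 2000 (62.8%) rose and 128 (19.2%) fell, whereas 93 of 445 numbered 10001 to 13000 (20.9%) rose and 264 (59.3%) fell. In the dimmest 25% the shares were 30.7% and 39.1% of 261 features numbered 1 to 2000, and 9.53% and 71.8% of 1028 numbered 10001 to 13000. When OM+N replicate 1 was left out, 59.3% of the bright features numbered 1 to 2000 rose and 18.5% fell, against 20.2% and 57.3% of those numbered 10001 to 13000. What the order of the numbers stands for is not stated in the labels or files.

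Most large changes were not shared with the next feature in the numbering, and a minority were. Of 442 features that rose by at least 1 and had a feature with the next number, 48 (10.9%) were followed by another such rise, against 3.93% of all features that rose as much and 5.62% in their own ranges of 1000 numbers. Without OM+N replicate 1 it was 27 of 296 (9.12%, against 2.64% and 3.53%). For falls of at least 1 it was 6 of 138 (4.35%, against 1.17% and 2.96%), and 4 of 85 (4.71%, against 0.72% and 1.84%) without that array. These shares were not tested, and those of the falls rest on few features. The longest run of consecutive rises of at least 1 held 3 features. Whether neighbours in the numbering are related transcripts is not stated.

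The glucose change with ammonium was then compared with that without ammonium (OM+G minus OM). The log2 changes share no arrays, but their errors came from the same fit to all arrays, so the lists of calls were not independent. Without ammonium 8088 features (66.2%) were called, and 8192 when only OM+N replicate 1, which is in neither OM+G nor OM, was left out. In both comparisons 7475 features were called in the same direction, 83.4% of the calls with ammonium and 92.4% of those without. Changes were larger with ammonium when all arrays were used: 480 features rose and 143 fell by at least 1 with ammonium, against 131 and 2 without it, and the median absolute change over all features was 0.37 against 0.30. Much of this gap went with OM+N replicate 1 and OM replicate 2. These arrays were picked after seeing the data, and by their positions leaving them out was bound to narrow the gap. The cause of the gap was not tested. On a scale where 0 is the mean of OM+N and 1 the mean of OM+N+G, OM replicate 2 scored 0.39 and OM replicates 1 and 3 scored 0.12 and 0.05. With both left out, 322 rose and 88 fell by at least 1 with ammonium, against 265 and 30 without it, and the median absolute change was 0.35 against 0.34. Of the features called in the same direction in both comparisons, 82.3% had the larger change with ammonium when all arrays were used, and 58.1% of 7664 when both arrays were left out.

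**Figure D4:**
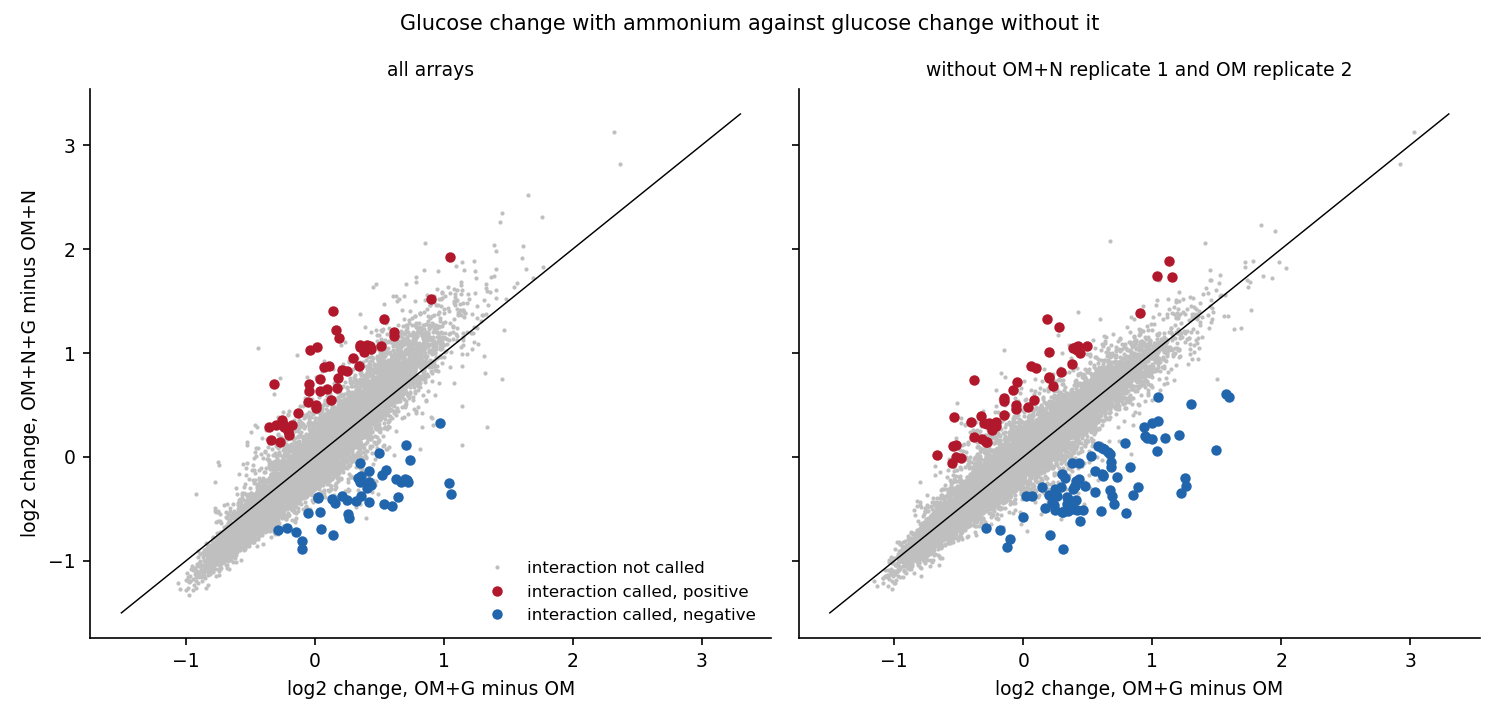
Glucose change with ammonium (OM+N+G minus OM+N, log2, vertical axis) against that without ammonium (OM+G minus OM, log2, horizontal axis) for every feature, with all arrays (left) and without OM+N replicate 1 and OM replicate 2 (right). The line marks equal change, and coloured points are the features that passed the interaction test, 90 on the left and 129 on the right.

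The test of whether single features responded to glucose differently at the different levels of ammonium gave far fewer calls than the glucose change itself, and their number depended on the arrays and the model. The difference between the glucose changes, tested as an interaction, passed for 90 features (0.737%), 46 with a more positive and 44 with a more negative change in the presence of ammonium. An unadjusted p under 0.05 was seen in 1535 features, and in 1133 without OM+N replicate 1. With array weights 329 interactions were called. Without OM+N replicate 1 it passed for 83 (0.68%), 33 positive and 50 negative, and 64 were shared with the same sign. Without OM+N replicate 1 and OM replicate 2 it passed for 129 (1.06%), 49 positive and 80 negative, of which 67 were among the 90. All 3 fits called 60 features in common. Other arrays also moved the count by over 1.5 times: leaving out OM replicate 1 gave 37, leaving out OM+G replicate 1 or 2 gave 28 or 25, leaving out OM+N replicate 3 gave 38, and leaving out OM+N+G replicate 1 or 3 gave 53 or 48.

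The positive and the negative class were picked by the sign of the interaction in these same arrays. That choice by itself pushes the change with ammonium and the change without it apart, so the counts below are no separate support. Over all features 32.7% were called upward and 40.7% downward with ammonium. With ammonium present, glucose raised all 46 features of the positive class, by a median of 0.79 (log2, range 0.14 to 1.93). Without ammonium their median change was 0.10, with 18 called upward and 11 called downward. In the negative class the median change was -0.37 with ammonium (range -0.89 to 0.33) and 0.36 without it (range -0.29 to 1.06). With ammonium 34 of these 44 features were called downward and 1 upward, and without ammonium 31 were called upward and 3 downward. In the fit without OM+N replicate 1, 32 of the 33 positive features were called upward with ammonium. Of the 50 negative ones, 36 were called downward and 1 upward with ammonium, and 41 upward and 2 downward without it. In 32 of the 44 the highest group mean was that of OM+G and the lowest that of OM+N+G.

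Of the 1446 features called with ammonium but not without it, 27 passed the interaction test, and 1296 had the same sign in both comparisons. There were 1069 such features without OM+N replicate 1, 20 of which passed. For most of them a difference between the ammonium levels was therefore not shown. The 42 features called in opposite directions, 16 upward and 26 downward with ammonium, passed the interaction test in 32 cases, and 35 of 50 did without OM+N replicate 1. The largest interaction among the 16 belonged to a feature with levels of 11.01, 11.02 and 11.16 (log2) in OM+N+G, against 10.45, 10.31 and 10.33 in OM+N. Its levels without ammonium were 9.82, 9.94 and 9.94 in OM+G, against 10.28, 10.08 and 10.27 in OM. OM+N+G was thus the highest and OM+G the lowest group, with no overlap within either comparison. Its glucose change was 0.70 (SE 0.07, limma adjusted p = 3.55e-06) with ammonium and -0.31 (SE 0.07, limma adjusted p = 0.00227) without it, and the interaction of 1.01 (SE 0.10, limma adjusted p = 0.00121) was 1.06 (SE 0.11, limma adjusted p = 0.00231) without OM+N replicate 1.

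paxillus_3701 and paxillus_887 had the most positive interactions among features called with and without OM+N replicate 1. The level of paxillus_3701 was 12.78, 12.86 and 12.79 (log2) in OM+N+G, against 11.25, 11.43 and 11.54 in OM+N, 11.50, 11.47 and 11.56 in OM+G and 11.24, 11.47 and 11.40 in OM. Only the arrays with both nutrients were high. Glucose changed it by 1.40 (SE 0.08, limma adjusted p = 4.09e-07) with ammonium and by 0.14 (SE 0.08, limma adjusted p = 0.138) without it, and without OM+N replicate 1 the change with ammonium was 1.33 (SE 0.08, limma adjusted p = 1.89e-06). The level of paxillus_887 was 13.60, 13.50 and 13.43 in OM+N+G, against 12.17, 12.67 and 12.59 in OM+N, 13.48, 13.51 and 13.50 in OM+G and 13.45, 13.74 and 13.42 in OM. Here only the arrays with ammonium alone were low, OM+N replicate 1 most of all. Its glucose change with ammonium was 1.03 (SE 0.12, limma adjusted p = 6.46e-06), and 0.88 (SE 0.09, limma adjusted p = 9.34e-06) without OM+N replicate 1.

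paxillus_11908 and paxillus_9370 had the most negative interactions by the same rule. The level of paxillus_11908 was 10.78, 10.64 and 10.51 (log2) in OM+N+G, against 11.03, 10.99 and 10.98 in OM+N, 12.41, 12.47 and 12.09 in OM+G and 11.19, 11.59 and 11.02 in OM. Glucose lowered it with ammonium by a small amount (-0.36, SE 0.13, limma adjusted p = 0.0258), a call that was lost without OM+N replicate 1 (-0.35, SE 0.15, limma adjusted p = 0.0594), and raised it by 1.06 (SE 0.13, limma adjusted p = 2.84e-05) without ammonium. The level of paxillus_9370 was 10.92, 10.72 and 10.75 in OM+N+G, against 10.99, 11.06 and 11.10 in OM+N, 12.98, 13.03 and 12.63 in OM+G and 11.77, 12.29 and 11.47 in OM. Both features were highest with glucose alone. Their OM+N+G and OM+N arrays did not overlap, as was so for 75.9% of all features. For paxillus_9370 the nearest arrays were close, at 10.92 in OM+N+G and 10.99 in OM+N. The glucose change of paxillus_9370 with ammonium did not pass the test (-0.25, SE 0.16, limma adjusted p = 0.177, and 0.191 without OM+N replicate 1), whereas without ammonium it rose by 1.04 (SE 0.16, limma adjusted p = 0.000128). The change with ammonium did pass with the 6 compared arrays alone (-0.25) and with array weights (-0.28).

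**Figure D5:**
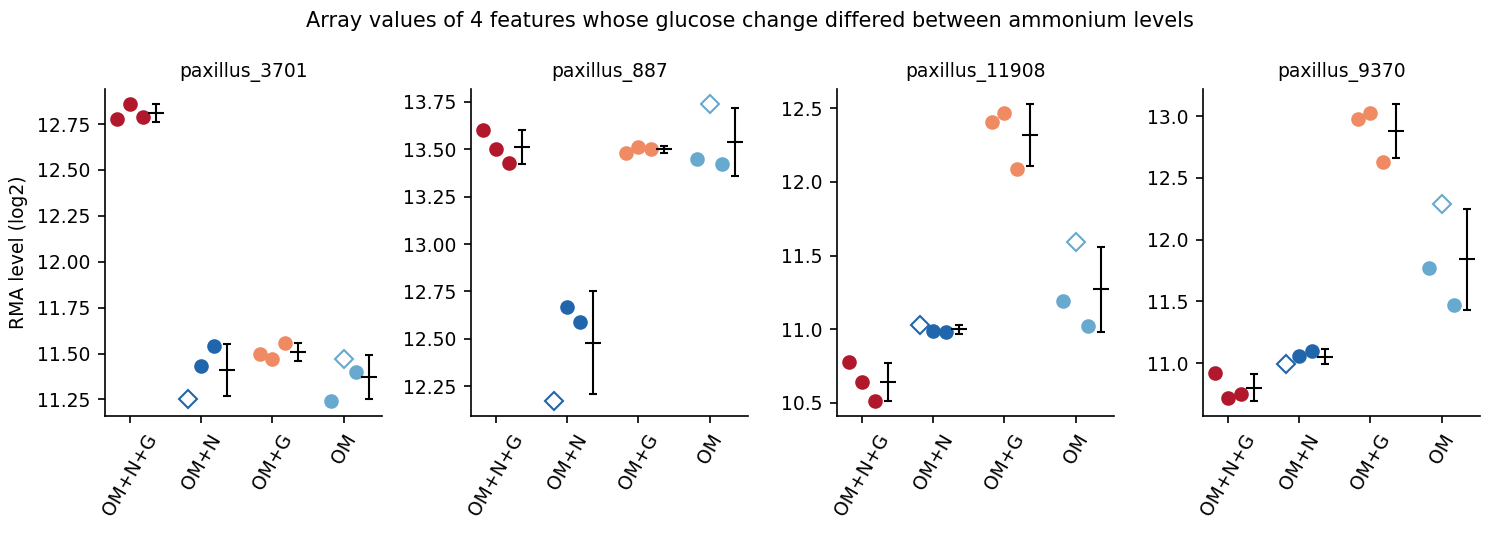
RMA level (log2) in each array of the 4 groups for the 2 most positive (paxillus_3701, paxillus_887) and the 2 most negative (paxillus_11908, paxillus_9370) interactions, with the group mean and SD (n = 3) as a bar to the right of the points. Open diamonds mark OM+N replicate 1 and OM replicate 2; only OM+N+G is high for paxillus_3701, only OM+N is low for paxillus_887, and OM+G is highest for the other two.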

How the data were processed

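Total RNA was copied to double-stranded cDNA, labelled with Cy3 and hybridised to 1 NimbleGen slide with 12 subarrays, per the labels' protocols. The authors deposited log2 values made with RMA, per the submitters' processing notes. The software is not named there, and the log base was read from the range of the values. RMA usually makes probe distributions alike before it summarises them, but the summarised values differed in interquartile range between the groups; changes are read relative to the rest of the array, and total mRNA was not measured. The deposited array files also hold the number of probes per feature (10 for 12203 features, fewer for 11) and a score that the authors named as an error of the expression value, whose meaning is not stated; the score was not used. The series table held the same values. The control feature was left out.

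The package limma (version 3.58.1, under R 4.3.3) was used to fit 4 group means to the 12 arrays, with 8 residual and 4.72 prior degrees of freedom and default settings of eBayes, and a feature was called at a Benjamini-Hochberg adjusted p under 0.05 over all 12214 features. Errors of changes are limma's moderated SE. The script was tested on simulated data. The design text mentions 3 separate cultures, which was taken to mean 3 in each group; if they were not separate, the p-values measure only the spread between subarrays. The number of arrays limits the precision.

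Named features are the 2 largest rises and the 2 largest falls called with and without OM+N replicate 1 with no overlap of arrays, and likewise the 2 most positive and the 2 most negative interactions, with no condition on overlap. Largest changes near the control level (group mean under 6), those most dependent on that array and the largest interaction among features called in opposite directions are given by their values. The groups, rules and lists were chosen with earlier results of these data known. Lists of genes by function could not be used without gene names. Same-numbered arrays of OM+N+G and OM+N had deviations that correlated with r of -0.07, 0.11 and -0.08, so the numbers were not taken as pairs. Alternatives were other normalizations between arrays, a filter on the dimmest 25% of features, other variance models, array weights, the replicate number as a block, other sets of arrays and a minimum change.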

Additional observations from a re-analysis of the deposited data

Results flagged for a closer look

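The glucose change differed between the levels of ammonium, by the interaction test, for 90 features. Among the features described above these were paxillus_3701 (1.26, SE 0.11, limma adjusted p = 0.000638), paxillus_887 (1.07, SE 0.17, limma adjusted p = 0.0123), paxillus_11908 (-1.42, SE 0.19, limma adjusted p = 0.00648) and paxillus_9370 (-1.30, SE 0.23, limma adjusted p = 0.0238). The feature with the largest interaction among those called upward with and downward without ammonium had a value of 1.01 (SE 0.10, limma adjusted p = 0.00121). The largest fall near the control level also passed (-0.74, SE 0.15, limma adjusted p = 0.045). Its interaction call was lost without OM+N replicate 1 (-0.76, SE 0.16, limma adjusted p = 0.0605). All values are log2 differences of the glucose change with ammonium minus that without it. Without OM+N replicate 1 the first 4 were 1.19, 0.92, -1.40 and -1.33, with limma adjusted p of 0.000786, 0.00905, 0.0122 and 0.0366.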

How the results depend on the processing

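With all 12 arrays 8963 features were called for glucose with ammonium. Leaving out any 1 of the 6 arrays compared gave 8449 to 8766, and leaving out OM+N replicate 1 with OM replicate 2, chosen after seeing the data, gave 8701. The other normalizations, the variance model, array weights, the 6 arrays alone and the series table gave 8707 to 9300. With the dimmest 25% of features left out, 7183 were called, from a smaller set of tested features. With the replicate number as a block 8903 were called, and 64 interactions. Against a minimum change rather than 0, limma's treat called 1867 features at a minimum of 0.5 and 5 at a minimum of 1, all 5 rises and 0 falls, with 163 rises and 22 falls at an unadjusted p under 0.05. Rises of at least 1 numbered 322 to 602 and falls of at least 1 numbered 88 to 174 when 1 array was left out, and scaling to the 75th percentile gave 388 and 231. The 90 interactions became 59 after quantile normalization, 144 with an intensity trend and robust moderation, 329 with array weights (gene-by-gene method), 25 to 103 when 1 array was left out and 129 without OM+N replicate 1 and OM replicate 2. The 4 named features of the main comparison kept their direction and call in the settings run for them other than the treat minimum of 1, but the filter on dim features removed paxillus_12663; paxillus_11908 lost its call for glucose with ammonium in 5 settings besides treat, and paxillus_9370 that for the interaction in 7. Conversely, paxillus_9370 gained a call for glucose with ammonium with array weights and with the 6 arrays alone. The cause of these differences was not tested. Background correction and probe summary could not be varied, since summarised values were used, and with 1 slide no slide effect could be fitted.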
